A study of Caenorhabditis elegans with 2 samples.

Results

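The microRNA (miRNA) genes of Caenorhabditis elegans were examined for recovery in a chromatin immunoprecipitation of the tagged transcription factor HLH-13. The members were all 261 genes that the Ensembl annotation of the assembly WBcel235 classes as miRNA genes, of 46926 annotated genes in all. Each gene was given the candidate region of highest signal value whose summit lay in the gene or within 500 bp of it, or none. This was done in the authors' pooled list and in the list of each replicate, and measured values played no part in choosing the genes. The genes were 52 to 1732 bp long with a median of 95 bp, and 3 were longer than 200 bp.

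HLH-13 is a basic helix-loop-helix protein, a class of factors that binds DNA at E-boxes. It was expressed with TY1, EGFP and 3xFLAG tags from the transgene wgIs744, which also carries unc-119(+), in strain OP744 with the background allele unc-119 (tm4063), and chromatin was recovered with an anti-GFP antibody. Both biological replicates came from this strain and formed the only group: mixed-sex embryos labelled late embryonic, aged 3.5 hours and synchronised by egg bleaching. Whole embryos were used, so cells with and without the tagged protein were not separated, and all chromatin came from 1 transgenic line.

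A miRNA is cut in steps from a folded primary transcript, by Drosha in the nucleus and by Dicer in the cytoplasm, and then guides an Argonaute protein to messenger RNAs. Pairing runs mainly through the seed, bases 2 to 8 of the mature RNA, and genes that share a seed form a family that can act on the same messages. Many C. elegans miRNAs lie in clusters that are transcribed as 1 RNA, and others lie in introns of protein-coding genes. The mir-35 and mir-51 families are known for roles in embryonic development, and lin-4 and let-7 for the timing of larval development.

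The families that hold the strongest regions, or that serve as their comparison, are shown first. Mature RNAs are written 5′ to 3′ as in the RefSeq copy of WBcel235, in lower case with the seed in capitals. The 6 members of the mir-51 family have the same seed and differ after it:
mir-51: uACCCGUAgcuccuauccauguu
mir-52: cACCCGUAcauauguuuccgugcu
mir-53: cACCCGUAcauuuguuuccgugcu
mir-54: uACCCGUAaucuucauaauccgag
mir-55: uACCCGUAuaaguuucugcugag
mir-56: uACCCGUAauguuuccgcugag
The seed of mir-58.1 differs in its last base from that of the related mir-80, mir-81 and mir-82:
mir-58.1: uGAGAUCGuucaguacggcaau
mir-80: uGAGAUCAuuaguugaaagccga
mir-81: uGAGAUCAucgugaaagcuagu
mir-82: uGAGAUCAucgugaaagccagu
The let-7 and mir-35 families are represented by 2 genes each, all of which are described in the results:
let-7: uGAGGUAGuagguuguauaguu
mir-84: uGAGGUAGuauguaauauuguaga
mir-35: uCACCGGGuggaaacuagcagu
mir-42: uCACCGGGuuaacaucuacaga

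The authors' optimal set, which they selected with the irreproducible discovery rate (IDR), held 423 regions, and 5 of the 261 miRNA genes had one of these summits within 500 bp (1.92%, 95% Wilson interval 0.821 to 4.41%). The share was 1.95% over all annotated genes and 0.457% over all places of 95 bp in the nuclear genome. It was 175 of 612 for tRNA genes (28.6%, interval 25.2 to 32.3%) and 53 of 346 for snoRNA genes (15.3%, interval 11.9 to 19.5%). The 5 genes were mir-51, mir-52, mir-58.1, mir-2 and mir-4932. The share of miRNA genes thus lay near that of all genes, above that of genome places and below those of tRNA and snoRNA genes. A summit anywhere in a gene or within 500 bp counts, so long genes have more room. Only the places match the members' median length. Genes for piRNAs, small RNAs of the germ line, had 15 of 15363 in the optimal set (0.0976%), and without them the share of all genes was 2.85%.

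Of all 30000 pooled candidates, 101 lay at 114 miRNA genes (43.7%, interval 37.8 to 49.7%), and 147 genes had none. The share was 39.0% over all genes and 28.7% over all places. Among the 10000 pooled candidates of highest signal, 59 miRNA genes had a summit (22.6%, interval 17.9 to 28.1%), against 19.2% of all genes and 10.4% of places. Among the 1000 best, 12 had one (4.60%, interval 2.65 to 7.86%), against 3.60% of all genes and 1.08% of places. The share of all genes depends on the piRNA genes, of which 6.46% had a candidate. Over the other 31563 genes it was 54.9% for any candidate, 27.5% for the 10000 best and 5.27% for the 1000 best, above the miRNA genes in each. Protein-coding genes, 19973 in number, had a candidate at 59.7%. These shares are not matched for length, and a longer gene has more room for a summit. Only the places match the members' median length, and the miRNA genes lay above them in each set. Among the 1000 best, tRNA genes stood at 38.1% and snoRNA genes at 19.4%.

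**Figure D1:**
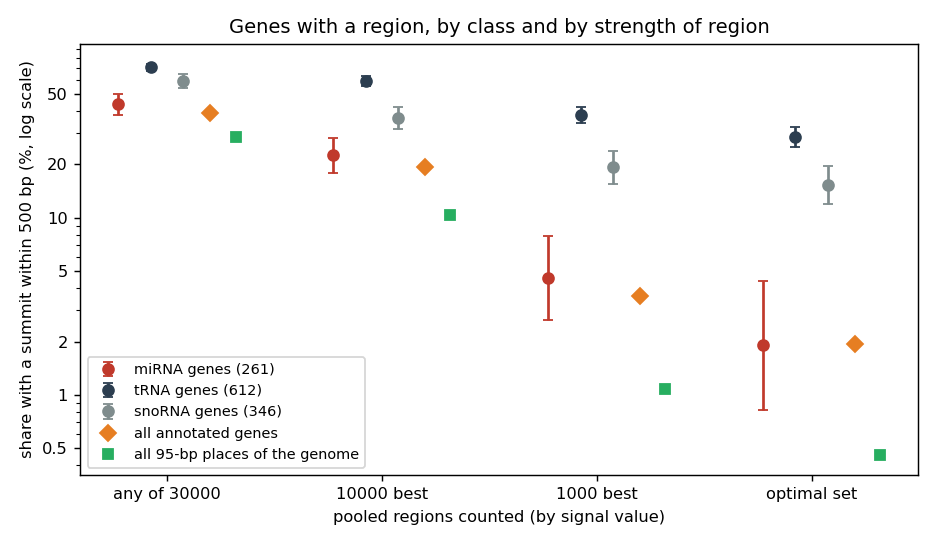
Share of genes with a summit within 500 bp (%, log scale) for 4 sets of pooled regions, from all 30000 to the optimal set; circles are miRNA, tRNA and snoRNA genes with 95% Wilson intervals, diamonds all annotated genes and squares all places of 95 bp. The miRNA genes end at 1.92% in the optimal set, all annotated genes, piRNA genes included, at 1.95%, and tRNA genes at 28.6%.

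The signal value is how the authors scored a region's enrichment relative to the control, on a scale the sources used here do not give, so it serves for ranks within a list. The members' best pooled regions had a median signal of 39.8, against 34.2 over all 30000 candidates. The optimal set ran from 85.3 to 668, so most miRNA genes with a region lay far below it: 55 of the 114 ranked beyond 10000. The lists hold no read counts, so the depth behind each value is unknown, and the intervals cover only the number of genes.

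The highest signal among miRNA genes belonged to mir-51, an intergenic gene at chrIV:11026013-11026112 on the minus strand. Its region had a signal of 337 in the pooled list, 185 in replicate 1 and 154 in replicate 2. It ranked 11 in the pooled list, 10 in replicate 1 and 16 in replicate 2, high in all 3 lists. The summit lay 77 bp upstream of the gene, at position 11026189.

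That summit also lay inside another annotated gene, F36H1.17, a non-coding RNA gene of 89 bp at chrIV:11026131-11026219 on the minus strand, which the annotation places in no named class. The B box is a promoter element inside tRNA genes and some other genes of RNA polymerase III. Its consensus was found on the minus strand from 35 to 25 bp before the summit (chrIV:11026154-11026164), inside F36H1.17, and no A box was found within 100 bp. The nearest annotated tRNA gene was 205376 bp away and the nearest snoRNA gene 56958 bp. The 101 bases around the summit are shown because they hold this match, with the B box in capitals, here read on the plus strand of chrIV:11026139-11026239:
mir-51 summit: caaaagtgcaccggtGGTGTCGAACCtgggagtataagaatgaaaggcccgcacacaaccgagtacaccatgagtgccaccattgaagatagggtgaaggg
Fragments of 200 to 800 bp cannot separate the 2 genes, so whether the region belongs to mir-51 or to F36H1.17 cannot be told apart.

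The mir-52 gene, of the same family and also intergenic (chrIV:14034008-14034107, plus strand), had a signal of 172 in the pooled list, 98.5 in replicate 1 and 81.8 in replicate 2. It ranked 105, 82 and 113 in these lists and was, with mir-51, the only miRNA gene among the 423 best of both replicates. Its summit lay inside the gene, at 14034011, 3 bp from the 5′ end. Another 2 non-coding genes overlapped or adjoined it, Y37A1B.335 on the minus strand, which also held the summit, and a gene on the plus strand 7 bp away. An E-box, CANNTG, was found 21 to 26 bp after the summit (chrIV:14034032-14034037), within the sequence of the mature RNA, and is in capitals in the plus strand of chrIV:14033961-14034061:
mir-52 summit: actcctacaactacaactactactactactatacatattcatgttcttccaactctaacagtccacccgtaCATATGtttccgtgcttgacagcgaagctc

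The mir-58.1 gene, of the bantam-like family, lies in an intron of phkb-1 on the same strand (chrIV:3233254-3233350, plus strand). Its signal was 103 in the pooled list, 66.8 in replicate 1 and 45.8 in replicate 2, at ranks 267, 174 and 502, so it passed the 423 best in replicate 1 only. The summit lay 198 bp upstream of the gene. The 101 bases around it were 64.4% G and C, against a median of 50.5% over the optimal set, and held no E-box, A box or B box. They are shown for this composition, on the plus strand of chrIV:3233006-3233106:
mir-58.1 summit: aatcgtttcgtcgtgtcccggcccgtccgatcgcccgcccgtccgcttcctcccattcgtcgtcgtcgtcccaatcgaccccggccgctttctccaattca

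The other 2 optimal regions lay just inside the authors' threshold. The gene mir-2, in an intron of ppfr-1 on the same strand (chromosome I, 9372768 to 9372865, minus strand), had a signal of 88.6 in the pooled list, 49.0 in replicate 1 and 40.1 in replicate 2. Its ranks were 383, 370 and 875, and the summit lay 197 bp upstream. The gene mir-4932, intergenic by the annotation (chromosome I, 9512307 to 9512416, plus strand), had a signal of 88.4 in the pooled list, 37.9 in replicate 1 and 47.3 in replicate 2. Its ranks were 384, 947 and 439, with the summit 42 bp upstream of the gene and 29 bp upstream of the start of smn-1, the worm gene for the survival motor neuron protein. This summit also lay in the promoter window of klp-16, so it cannot be assigned to mir-4932 alone.

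Just outside the threshold were mir-84 and mir-124. The let-7 family gene mir-84 (chromosome X, intergenic) had a signal of 77.0 in the pooled list, at rank 565, with 27.3 in replicate 1 and 49.7 in replicate 2. Its ranks of 4405 and 384 put it among the 423 best of replicate 2 only. The neuronal miRNA gene mir-124, in an intron of trpa-1, had signals of 76.4, 36.7 and 45.3 at ranks 576, 1100 and 523. Its summit lay 242 bp downstream of the gene.

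**Figure D2:**
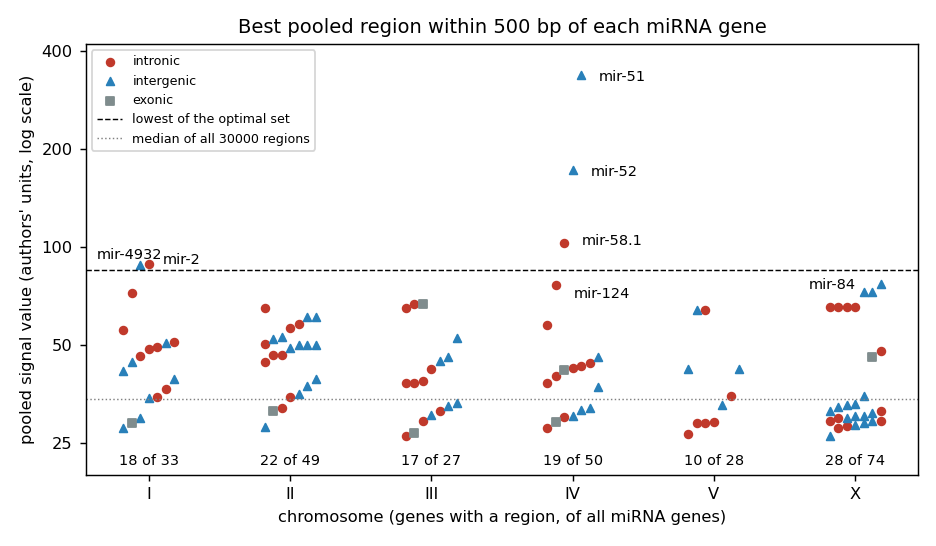
Pooled signal value (authors' units, log scale) of the best region of the 114 miRNA genes that have one, by chromosome and by place in protein-coding genes; each point is a gene, the dashed line is the lowest signal of the optimal set (85.3) and the dotted line the median of all 30000 candidates (34.2). Chromosome IV holds 3 of the 5 genes above the dashed line, and chromosome X, with 28 of 74 genes with a region, holds none. Shares of places in the optimal set are not given by chromosome, and 5 genes are too few to compare chromosomes.

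Signals of 72.8 to 67.0 followed at the pair mir-73 and mir-74, at mir-1824, and at the pair mir-86 and mir-8211, each pair sharing 1 region. The region of mir-73 and mir-74 ranked 692 in the pooled list, 457 in replicate 1 and 8780 in replicate 2, and 78.6% of the 32-base words around its summit occurred once in the genome. The region next to mir-1824 ranked 701 and lay in the promoter windows of Y87G2A.1 and Y87G2A.18. The next regions were at mir-54, mir-55, mir-56 and the overlapping antisense gene F09A5.15, which share rank 1053, at mir-229 with rank 1066, at mir-35 with 1071, at mir-87 with 1135 and at mir-241 with 1149. The 25 highest genes were completed by mir-8186.1 and its antisense partner mir-8186.2 at rank 1433, mir-5595 at 1846, mir-4930 at 1931 and mir-4929 at 2119. Of these 25 genes, 10 shared their region with another miRNA gene and 6 had the summit in a coding promoter window, 14 in all with either.

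The best-studied miRNA genes were spread over the lists. The heterochronic gene lin-4, which represses lin-14, ranked 4959 with a signal of 46.7 and a summit 321 bp upstream. In replicate 1 its signal was 23.2 and in replicate 2 it was 23.9, at ranks 8382 and 9257. The let-7 gene, annotated over 1732 bp and overlapping an exon of C05G5.7, ranked 5221 with a signal of 46.1, and 15137 and 17714 in the replicates. The muscle miRNA gene mir-1 ranked 9661 with a signal of 39.3 and a summit 460 bp downstream. It had no region in replicate 1. Its region in replicate 2 was a different one, upstream of the gene with the summit at 6173115. The gene mir-71, known from studies of lifespan, ranked 5196 with a signal of 46.1, and mir-61, which acts in vulval cell fate, shared the region at rank 7310 with its neighbour mir-250. The gene lsy-6, which sets left-right asymmetry of a pair of taste neurons, had no region in any list. The gene mir-34, studied in the response to DNA damage, had one only in replicate 2, at rank 9871, and mir-48 only in replicate 2, at rank 21577.

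At mir-51 and mir-52 the ranks were close in the 2 replicates, and no other miRNA gene was among the 423 best of both. Each list held a region at 117 miRNA genes, against 40.8% of all genes and 28.6% of places in replicate 1 and 39.3% and 28.9% in replicate 2. A region in both lists was found at 76 genes (29.1%, interval 23.9 to 34.9%), against 28.0% of all genes, and at 51 of these 76 the 2 regions overlapped. Of the 114 genes with a pooled region, 68 had one in each replicate and 3 in neither. Among the 423 best of each list, replicate 1 had 5 miRNA genes and replicate 2 had 9. The background was 1.87% of all genes and 0.455% of places in replicate 1, and 1.83% and 0.455% in replicate 2.

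The genes in these 2 sets differed beyond mir-51 and mir-52. Replicate 1 added mir-58.1, mir-90 and mir-2. At mir-90, in an intron of K01F9.2, the signal was 50.2 at rank 346 in replicate 1, with no region in replicate 2 and a pooled rank of 7476. Replicate 2 added mir-35, mir-84, mir-4930 and the region shared by mir-54, mir-55, mir-56 and F09A5.15. At mir-35 the signal was 55.6 at rank 263 in replicate 2 and 21.8 at rank 10560 in replicate 1. At mir-4930 it was 51.6 at rank 340 in replicate 2, with no region in replicate 1, and 65.7% of the words around the pooled summit occurred once in the genome. At mir-229 the best regions were 2 separate sites that did not overlap. Replicate 1 had 42.5 at rank 600 with the summit at 2172050, upstream of the gene. Replicate 2 had 18.6 at rank 19407 with the summit at 2172939, inside mir-64, so these values do not compare 1 region. The ranks of mir-58.1 and mir-2 lay on either side of 423, while mir-90, mir-35 and mir-4930 were far apart in the 2 lists or missing from one. With 2 replicates the spread behind such a gap could not be estimated.

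Over the 64 distinct pairs of best regions at miRNA genes, Spearman's rho between the replicates' signals was 0.438 and Pearson's r 0.866. A pair joined the best region of each list whether or not the 2 overlapped, and they overlapped at 51 of 76 genes. Some pairs therefore compare different sites. Without the 5 genes of the optimal set, 59 pairs gave a rho of 0.301 and an r of 0.215. At tRNA genes rho was 0.765 over 327 pairs and at snoRNA genes 0.790 over 153. How many pairs overlap at tRNA and snoRNA genes is not given here, so the rho values do not compare agreement at the same sites. These are descriptions across sites that share 2 libraries and the same control.

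**Figure D3:**
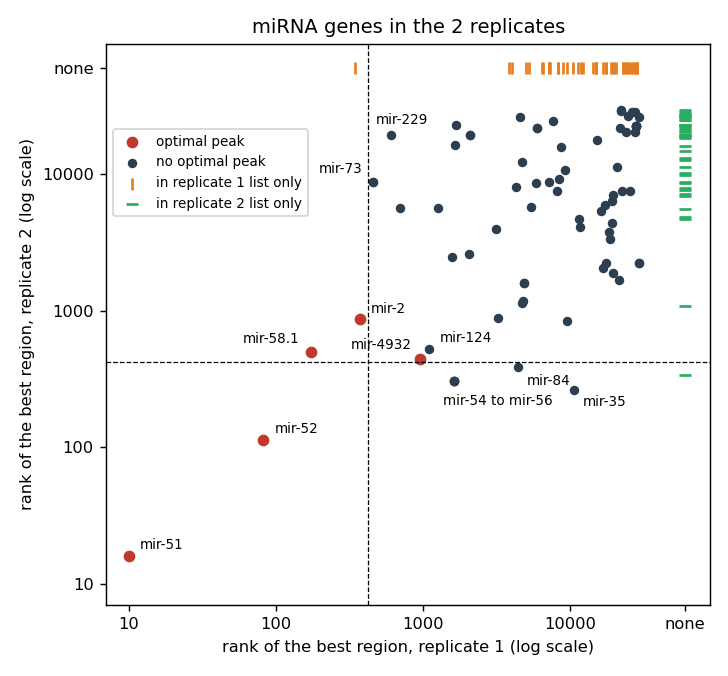
Rank of the best region at each miRNA gene in replicate 1 (horizontal) and replicate 2 (vertical), log scales; dashed lines mark rank 423, and ticks along the edges are genes with a region in 1 list only. The points at mir-51 (10 and 16) and mir-52 (82 and 113) lie on both lists' best side, and no other gene does. The regions of a gene in the 2 lists need not overlap.

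Genes in introns had a region more often than genes between protein-coding genes. Of 97 intronic miRNA genes 54 had a pooled region (55.7%, interval 45.8 to 65.2%), of 152 intergenic genes 53 (34.9%, interval 27.8 to 42.7%), and of 12 that overlap an exon 7. The difference between intronic and intergenic genes was 20.8 percentage points (95% Newcombe interval 8.15 to 32.7). The interval counts each gene by itself, although genes of a cluster can share a region and are not separate observations. Places of 95 bp of the same kinds had a region at 30.2% when intronic, 25.4% when intergenic and 30.8% when exonic, a smaller gap in the same direction. Intronic miRNA genes on the strand of their host had a region at 38 of 67 (56.7%) and those on the opposite strand at 16 of 30 (53.3%). A region in both replicates was found at 24 of the 67 and at 16 of the 30, and the median pooled signal was 42.3 on the same strand and 53.0 on the opposite strand. At tRNA genes the intronic share was 74.2% and the intergenic 67.7%, and at snoRNA genes 56.8% and 62.9%.

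In the strongest sets the counts were too small to compare. In the optimal set were 2 intronic miRNA genes and 3 intergenic ones, where 0.359% of intronic places, 0.544% of intergenic places and 0.443% of exonic places had a summit. Among the 1000 best regions 5 intronic, 6 intergenic and 1 exonic gene had one, against 0.992%, 1.22% and 0.995% of such places. A grouping made after the values were seen, by the number in the gene's name, moved with the shares: 71 of 135 genes numbered under 1000 or named lin-4, let-7 or lsy-6 had a region (52.6%), and 40 of 122 with higher numbers (32.8%). Within the lower numbers 29 of 43 intronic genes had one (67.4%) and 38 of 86 intergenic genes (44.2%). Within the higher numbers it was 23 of 52 (44.2%) and 14 of 64 (21.9%), the same direction in both. Whether this grouping accounts for any of the gap was not tested.

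By chromosome, the share with a region was highest on chromosome III, at 17 of 27 genes, and on chromosome I, at 18 of 33 (54.5%). It was 22 of 49 on chromosome II, 19 of 50 on IV, 10 of 28 on V and 28 of 74 on X (37.8%). Places on these chromosomes had a region at 34.6% on III, 33.2% on I, 31.6% on II, 23.7% on IV, 24.9% on V and 27.4% on X, so III and I were high in both. The X chromosome carries the most miRNA genes; the median rank of their regions was 19137, and 9 of the 74 genes (12.2%) had a region among the 10000 best. Over the whole genome 10.4% of places and 19.2% of all genes had one, and on chromosome V 14.3% of the miRNA genes. The share of places on X alone among the 10000 best is not given here, so X has no matching background at that rank.

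Clusters were defined as miRNA genes on the same strand with gaps of at most 1000 bp, which gave 18 clusters with 52 genes, 11 of them pairs. A pooled region lay at 11 clusters and an optimal region at none. Clustered genes had a region at 23 of 52 (44.2%, interval 31.6 to 57.7%) and single genes at 91 of 209 (43.5%, interval 37.0 to 50.3%), shares with nearly the same value. Of the 9 clusters with 2 or more members that had a region, 8 were served by 1 region for all of these members, as at mir-73 and mir-74 or at mir-42, mir-43 and mir-44 (rank 3643). The members of a cluster are therefore not separate observations.

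The largest cluster, mir-35 to mir-41, holds 7 genes over 797 bp of chromosome II in an intron of Y62F5A.9. Its single pooled region lay 420 bp upstream of mir-35, the gene at the 5′ end, and mir-36 to mir-41 had none within 500 bp. The mir-54 to mir-56 cluster lies in an intron of F09A5.3, on the opposite strand. Its pooled summit lay 15 bp upstream of mir-54, again at the 5′ end. The replicate 2 summit, at 13145177, was also upstream of mir-54. In replicate 1 the best summit, at 13144815, lay inside the cluster, between mir-56 and mir-55. At the cluster of mir-229, mir-64, mir-65 and mir-66 in gcn-1, 1 region lay 403 bp upstream of mir-229 and another, at rank 10657, lay 265 bp from mir-66. With gaps of up to 10000 bp there were 29 clusters with 81 genes, and 2 held an optimal region, mir-2 with mir-71 and mir-51 with mir-53.

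Summits lay upstream of the miRNA gene more often than downstream. Of 114 genes, 62 had the summit upstream (54.4%, interval 45.2 to 63.2%), 14 inside (12.3%) and 38 downstream (33.3%, interval 25.3 to 42.4%). The 500 bp windows give each side 45.7% and the gene itself 8.68% at the median. Upstream summits made up 9 of 12 genes up to rank 1000, 28 of 47 from there to 10000 and 25 of 55 beyond it. In the optimal set 4 were upstream, 1 inside and 0 downstream. Beyond rank 10000 the sides were nearly even, with 24 downstream. Genes that share a region are each counted here.

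**Figure D4:**
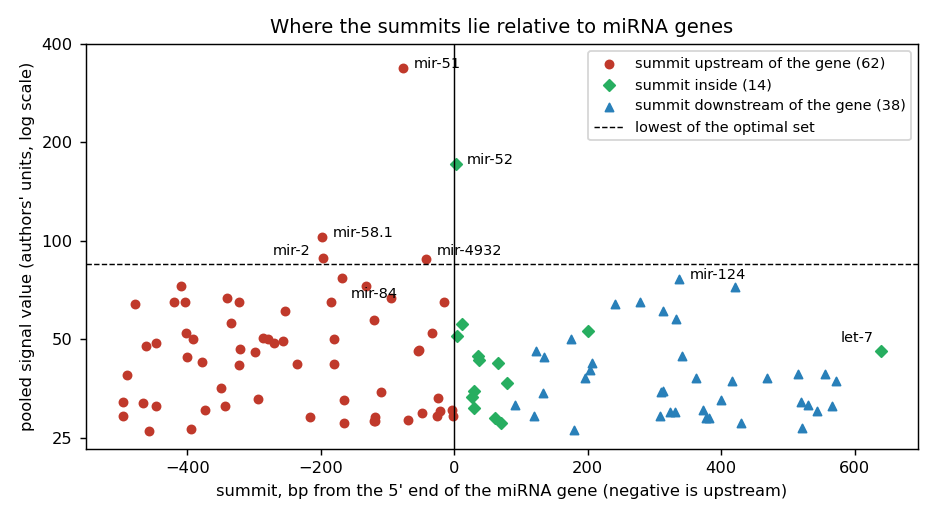
Position of the best pooled summit along each miRNA gene, in bp from its 5′ end (negative is upstream), against the pooled signal value (authors' units, log scale); colours and shapes give the side, and the dashed line is the lowest signal of the optimal set (85.3). Of the points above the line 4 lie upstream and 1 inside, and the 38 downstream summits all lie below it.

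Neighbouring genes for tRNAs, snoRNAs and snRNAs were counted by distance. The median distance of a miRNA gene was 95364 bp to the nearest tRNA gene, 103217 bp to the nearest snoRNA gene and 792135 bp to the nearest snRNA gene. Within 500 bp of a miRNA gene lay a tRNA gene in 4 cases and a snoRNA gene in 6, 10 genes in all. The share of all genes or places with such a neighbour is not given here, so this count has no background to be read against. Of these 10 genes, 5 had a pooled region, none in the optimal set or among the 1000 best. The closest pair was mir-5546 and the snoRNA gene Y71F9AL.24, 28 bp apart, with a region at rank 4077 and a signal of 48.8. No gene of these 3 classes lay within 500 bp of an optimal summit at a miRNA gene, and the closest was a snoRNA gene 2785 bp from the summit at mir-2.

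Another 2 optimal regions came within 1000 bp of miRNA genes. The region at rank 193 lay 799 bp from mir-4921 and 901 bp from mir-4923.1 on the X chromosome, with its summit inside the tRNA gene Y59E1B.t2. The region at rank 202 lay 864 bp from mir-354, in the promoter windows of ekl-4 and rps-20, a gene for a ribosomal protein. Other non-coding RNA genes lay within 100 bp of the summit at 14 of the 114 members, mir-51 and mir-52 among them. Genes that share a region are each counted. The share over all candidates is not given here, so this count has no background to be read against.

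In A and B boxes, though not in E-boxes, these summits lay nearer the candidates as a whole than the optimal set. All 101 regions are candidates and only 5 are in the optimal set, so this likeness was largely set in advance. The motifs were the A box and the B box of RNA polymerase III genes, searched within 100 bp of the summit, and the E-box CANNTG, searched within 50 bp, all on both strands; a match is a description of the letters. An A box was found in 17 of the 101 regions at miRNA genes (16.8%, interval 10.8 to 25.3%), against 15.5% of all 30000 candidates and 50.6% of the optimal set. A B box was found in 3 (2.97%, interval 1.02 to 8.37%), against 1.86% and 35.0%, and both boxes in 1, against 1.38% and 32.2%. An E-box was found in 33 (32.7%, interval 24.3 to 42.3%), against 35.0% of all candidates and 31.7% of the optimal set. The 3 sets thus had about the same share with an E-box, and the regions at miRNA genes had A and B boxes about as often as all candidates.

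Most of these regions, like most of all candidates, lay in unique sequence, and here too the likeness was largely set in advance. In 95 of the 101 every 32-base word around the summit occurred once in the genome (94.1%, interval 87.6 to 97.2%), against 89.8% of all candidates and 254 of the 423 optimal regions, and all 5 optimal regions at miRNA genes were of this kind. The median G and C content was 44.6%, against 41.6% over all candidates and 50.5% over the optimal set. A protein-coding promoter window, from 1000 bp upstream to 200 bp downstream of a start, held 35 of the 101 summits (34.7%), against 29.7% of all candidates.

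Grouped by identical seeds, 104 miRNA genes fell into 34 families of 2 or more, and 2 of these families had an optimal region. Beside the small counts per family stand the shares with any pooled region. These were 43.7% of all miRNA genes, 39.0% of all annotated genes and 28.7% of places. All 6 genes of the mir-51 family had a pooled region, over 4 distinct regions: the ranks were 11 for mir-51, 105 for mir-52, 1053 for the region shared by mir-54, mir-55 and mir-56, and 20874 for mir-53. The mir-53 gene lies on the strand of mir-51 with 1480 bp between them, and its signal was 30.3, near the low end of the list, with a region in replicate 2 only. The mature RNAs of mir-52 and mir-53, both 24 bases long, differ at 1 base, yet these genes stood far apart in rank. The mir-2 seed group had a region at 3 of 4 genes, with 1 in the optimal set.

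The mir-35 family, which also has an embryonic role, had a region at 2 of 8 genes, mir-35 at rank 1071 and mir-42 at 3643. The genes without one, mir-36 to mir-41, all lie in the cluster that starts with mir-35. The single pooled region of that cluster lies upstream of mir-35, so these genes are not separate observations. The mir-80 seed group had one at 4 of 6 genes, the highest being mir-80 at rank 17281 with a signal of 32.6, followed by Y73B6A.17 at 18118, mir-81 at 21501 and mir-82 at 25338. All were far below mir-58.1 at 267. The mir-72, mir-73 and mir-74 seed group had a region at 4 of 6 genes and the mir-229 group at 3 of 5. The let-7 family had one at 3 of 5, with mir-84 at 565, mir-241 at 1149 and let-7 at 5221, and none at mir-48 or mir-795. The share over all miRNA genes was 43.7%, and no group was tested against it.

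**Figure D5:**
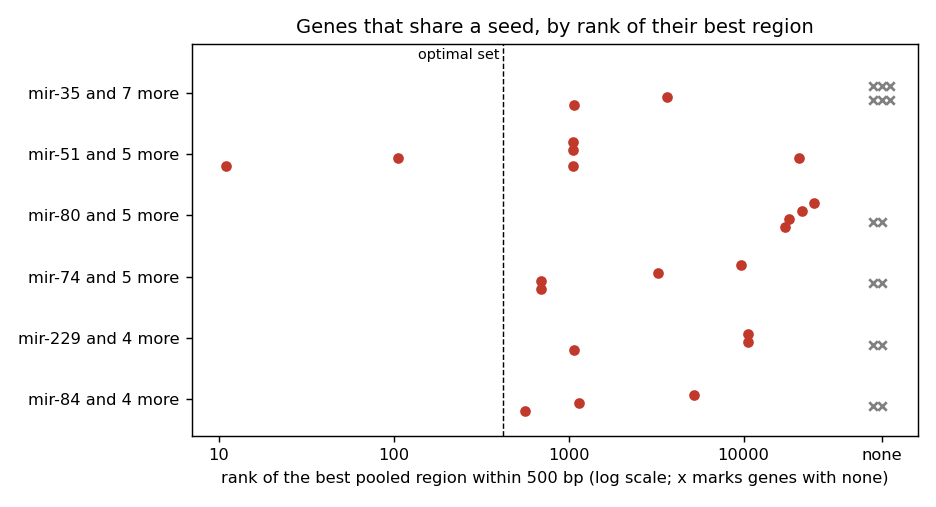
Rank of the best pooled region (log scale) for the 6 largest sets of genes with identical seeds; each dot is a gene and a cross is a gene with no region within 500 bp, and the dashed line marks the optimal set. The mir-51 family is the only one shown with dots left of the line, at 11 and 105, and the mir-35 family has 6 crosses, all in the cluster of mir-35 to mir-41.

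The genes of the miRNA pathway were counted for a region in their promoter window. Of 18 genes for processing and effector proteins 13 had one and 0 were in the optimal set, against 38.3% and 1.32% of all protein-coding genes. The highest was vig-1, a component of the RNA-induced silencing complex, at rank 601 with a signal of 75.6. It was followed by nhl-2, which promotes silencing by miRNAs, at 2345, by ain-1, which encodes a GW182 partner of Argonaute, at 2671, and by ain-2 at 7684. The Argonaute genes alg-1 and alg-2 ranked 16399 and 7713 and drsh-1, the gene for Drosha, 11916, and dcr-1, for Dicer, had none.

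Of 17 genes known as targets of studied miRNAs, 9 had a region and 0 were in the optimal set, against 38.3% and 1.32% of all protein-coding genes. With lists this short, a count of 0 in the optimal set says little. The highest was sup-26, a target of the mir-35 family, at rank 899 with a signal of 68.0. Next came nhl-2, which is in both lists, lin-14, the target of lin-4, at 3126 with 51.8, and mef-2, a target of mir-1, at 6727 with 43.3. The let-7 target lin-41 and the lsy-6 target cog-1 had none.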

How the data were processed

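Sonicated chromatin of 2 biological replicates, forming 1 group, was immunoprecipitated and sequenced. Per the submitters' file manifests, the authors made 30000 candidate regions for each replicate and as many for the pooled reads, all against the same control, and took the optimal set from the lists by IDR. The labels give ce11 (identical to WBcel235) as the assembly. Aligner, peak caller and IDR threshold: not given in the sources used here. For every region the deposited lists carry a signal value, used here to rank regions within a list, and a −log10 q-value by the authors, at most 2.36 in the pooled list and not used. The optimal set was checked to equal the 423 pooled regions of highest signal. Read depth is unknown.

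Genes came from Ensembl release 115, and mature RNAs, symbols and sequence from RefSeq on the same assembly; all 261 miRNA genes had a RefSeq symbol and 260 a mature RNA. A region was placed by its summit. A gene was exonic if it overlapped an exon of a protein-coding gene on either strand, intronic if otherwise inside one, and else intergenic. The background was every annotated gene and every place of 95 bp, the median length of the members, in the nuclear genome. Shares have 95% Wilson intervals over genes or regions, which are not replicates. With 1 group there was no test between conditions. Named genes were those in the optimal set, the 25 of highest pooled signal, the 10 best of each replicate, those next to the threshold, well-studied miRNA genes and the 4 highest of each pathway list. The members, lists and rules were chosen with earlier results of these data known. Alternatives changed the window, the placement, the annotation, the sets of regions, the clusters and the neighbours, or left out a replicate. The counting was tested on simulated data. The computations used Python 3.11.15 with pandas 2.3.3, numpy 2.4.6, statsmodels 0.14.6 and scipy 1.17.1, and figures matplotlib 3.10.9.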

Additional observations from a re-analysis of the deposited data

How the results depend on the processing

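The distance allowed between summit and gene set most counts. With the summit inside the gene, within 100 bp or within 250 bp, the 114 miRNA genes with a pooled region became 16, 43 and 70, and the 76 with a region in both replicates became 3, 17 and 38; within 1000 bp the 76 became 115. The 5 genes with an optimal region became 1 inside the gene, 3 within 100 bp and 8 within 1000 bp. With the 10000 best regions, 59 genes had a pooled region and 30 one in both replicates. The better 50% of the optimal set left 2 genes and the 1000 best regions gave 12. With 1 replicate left out, the count was 5 to 9 for the optimal regions (9 without replicate 1) and 117 for the candidate lists. The difference of 20.8 points between intronic and intergenic genes was 1.95 with summits inside the gene, 5.11 within 100 bp, and 17.9 to 26.9 with 1 replicate left out; its sign stayed the same in every alternative run. Clusters with an optimal region, 0 in the report, numbered 1 within 1000 bp, 2 with the 1000 best regions, 2 with gaps of up to 10000 bp and 0 to 2 with 1 replicate left out (2 without replicate 1). Optimal regions with a tRNA, snoRNA or snRNA gene at the summit, 0 in the report, marked 2 genes within 1000 bp and 4 when other non-coding genes and tRNA pseudogenes were counted. The cause of these moves was not tested beyond the wider or narrower sets themselves. No result reversed. No paired analysis was possible because there was 1 group. Without read counts, what depth limits could not be judged.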
